A study of Mus musculus with 14 samples.

Results

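The 9 genes that carry interferon signals from the cell surface to the nucleus were followed through 14 mouse kidney RNA-seq libraries. They are the type I interferon receptor chains Ifnar1 and Ifnar2, the interferon-gamma receptor chains Ifngr1 and Ifngr2, the kinases Jak1, Jak2 and Tyk2, and the transcription factors Stat2 and Stat3. They were taken by symbol from a count table of 24421 genes, and all 9 had enough reads to be tested. Whole kidneys of male C57BL/6J mice were sequenced, and the labels do not say whether the libraries of a group come from separate animals, so the p-values measure only the spread between these libraries. The 5 groups were vehicle (3 libraries), Dps after 4 h (3 libraries) and 24 h (3 libraries), and MnDps after 4 h (3 libraries) and 24 h (2 libraries). Dps and MnDps were given into a vein at 18 mg/kg. The labels give no time for the vehicle mice and no age, and they do not spell out Dps or MnDps. The series title describes protein cages that are filtered by the glomerulus and aimed at the proximal tubule.

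Type I interferons bind a receptor made of IFNAR1 and IFNAR2, which carry TYK2 and JAK1. Interferon-gamma binds IFNGR1 and IFNGR2, which carry JAK1 and JAK2. Phosphorylated STAT2 joins another STAT and IRF9 to bind interferon-stimulated response elements in promoters, while STAT3 is known chiefly as the factor of the interleukin-6 family, whose shared receptor chain is gp130 (Il6st). Several of these factors are themselves interferon-stimulated genes.

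The promoters of Stat2, Stat3, Ifngr2 and Ifnar2 are shown because the first 3 are the members that moved most and Ifnar2 holds the other motif match among the 9. Each is the 250 bases before the RefSeq start on GRCm38.p6, 5′ to 3′ on the gene's strand, with a motif match in capitals. They lie at chr10:128270248-128270497 on the plus strand, chr11:100939541-100939790 on the minus strand, chr16:91546809-91547058 on the plus strand and chr16:91372533-91372782 on the plus strand.
Stat2: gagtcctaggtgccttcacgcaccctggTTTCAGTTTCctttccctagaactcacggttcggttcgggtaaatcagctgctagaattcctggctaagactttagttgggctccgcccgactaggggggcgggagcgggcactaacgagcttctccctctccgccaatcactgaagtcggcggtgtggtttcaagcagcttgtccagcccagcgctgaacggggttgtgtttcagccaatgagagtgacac
Stat3: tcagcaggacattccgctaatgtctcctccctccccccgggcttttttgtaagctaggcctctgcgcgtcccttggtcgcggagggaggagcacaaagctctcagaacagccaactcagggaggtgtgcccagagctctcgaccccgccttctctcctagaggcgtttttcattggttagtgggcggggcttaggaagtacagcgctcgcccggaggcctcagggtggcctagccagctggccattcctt
Ifngr2: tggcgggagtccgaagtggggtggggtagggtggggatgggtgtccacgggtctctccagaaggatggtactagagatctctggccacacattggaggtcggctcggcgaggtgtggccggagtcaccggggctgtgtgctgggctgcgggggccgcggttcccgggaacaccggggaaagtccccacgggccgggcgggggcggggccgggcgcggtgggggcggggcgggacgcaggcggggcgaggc
Ifnar2: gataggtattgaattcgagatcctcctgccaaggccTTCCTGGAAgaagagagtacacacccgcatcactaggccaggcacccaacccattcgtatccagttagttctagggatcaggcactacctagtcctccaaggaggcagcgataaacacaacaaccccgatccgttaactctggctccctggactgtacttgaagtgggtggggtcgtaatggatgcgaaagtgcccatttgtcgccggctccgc

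Both strands were searched for the core of the interferon-stimulated response element, written as GAAA, any 2 bases and GAAA, and for TTCNNNGAA, the core of the element bound by STAT dimers. The letters of the first motif were found in the Stat2 promoter, on the minus strand, as TTTCAGTTTC read on the plus strand, from 222 to 213 bases before the start. The second was found in the Ifnar2 promoter, as TTCCTGGAA, from 214 to 206 bases before the start. These 2 matches do not overlap another match, and the other 7 members had neither set of letters in this window. Among 32851 mouse promoters of the same length, 978 (2.98%) held the first motif and 2306 (7.02%) the second.

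On mm10, with GENCODE M21 annotation, 3 of the 4 receptor chains lie together on chromosome 16, in the order Ifnar2 (chr16:91372783-91405589), the interleukin-10 receptor chain gene Il10rb (chr16:91406164-91425834), Ifnar1 (chr16:91485238-91507441) and Ifngr2 (chr16:91547072-91565623), all on the plus strand. Ifngr1 is at chr10:19591949-19610229 on the plus strand. Stat2 lies at chr10:128270559-128292849 on the plus strand. Stat3 is at chr11:100885098-100939540 on the minus strand, beside Stat5a and Stat5b. The kinase genes are on separate chromosomes, with Jak1 at chr4:101152367-101265282 (minus), Jak2 at chr19:29251828-29313080 (plus) and Tyk2 at chr9:21104068-21131243 (minus). Stat3 shares 72 exon bases with Stat5a on the opposite strand, and Tyk2 shares 554 exon bases with an antisense gene. Ifnar2 shares 315 exon bases with Gm21970 on the same strand. The labels and notes do not state whether counting used strand, and reads in those stretches may be split or joined.

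Total counts per library ran from 15097093 to 42074942, and the members had between 347 counts (Ifngr2) and 10300 counts (Stat2) in a library. The libraries above 30000000 counts, called deep below, were Dps_4h replicates 1 (42074942) and 2 (40435147), besides vehicle replicate 3 (37135858). No MnDps library and no library taken at 24 h was deep, so depth went partly with the Dps_4h group. Of the 24421 genes, 14854 were tested. The first principal component held 41.7% of the variance and set the 6 libraries taken at 4 h (scores of 31.4 to 44.1) apart from all others (scores of -35.5 to -21.1). Kidney markers summed to between 43720.0 and 69187.5 CPM, the read counts of a gene scaled to a common library size, in every library. Log2 fold changes were also correlated across 14328 genes with transcript length, with Spearman's coefficients, against vehicle, of 0.17 for Dps at 4 h, -0.47 for MnDps at 4 h, -0.51 for Dps at 24 h and -0.34 for MnDps at 24 h. The coefficient was -0.63 for MnDps against Dps at 4 h and 0.21 at 24 h, -0.43 for Dps and 0.30 for MnDps at 24 h against 4 h, and 0.59 for the interaction of protein and time. Genes are not independent replicates, so these are descriptions. Values with the length and GC trend removed are given beside calls of the 9 genes that they end or move by over 1.5 times.

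In vehicle kidneys Jak1 was the most abundant of the 9 per length, at 30.5 ± 2.39 CPM per kilobase of its longest transcript (SD, n = 3). Ifngr1 followed at 15.8 ± 1.26 and Ifnar1 at 11.8 ± 0.906 CPM per kilobase. Stat3 stood at 10.7 ± 0.243, Ifnar2 at 9.42 ± 0.957 and Jak2 at 8.74 ± 1.2 CPM per kilobase. Stat2 came next at 6.51 ± 0.726, and Ifngr2 (5.42 ± 0.302) and Tyk2 (5.42 ± 0.348) were lowest on this scale. The libraries of Ifnar2 and Jak2 overlapped, as did those of Ifngr2 and Tyk2, while the other neighbours in this order did not. With all exons of a gene as its length the first 2 places and the last held, and the order of the 6 others changed. At 4 h Stat2 led on this scale, at 48.8 ± 7.28 after Dps and 44.6 ± 6.91 after MnDps (CPM per kilobase, n = 3 each), above Jak1 at 35.6 ± 2.2 and 27.3 ± 1.42. At 24 h Jak1 was first again, at 25.5 ± 0.172 after Dps (n = 3) and 27.7 ± 1.04 after MnDps (n = 2).

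**Figure D1:**
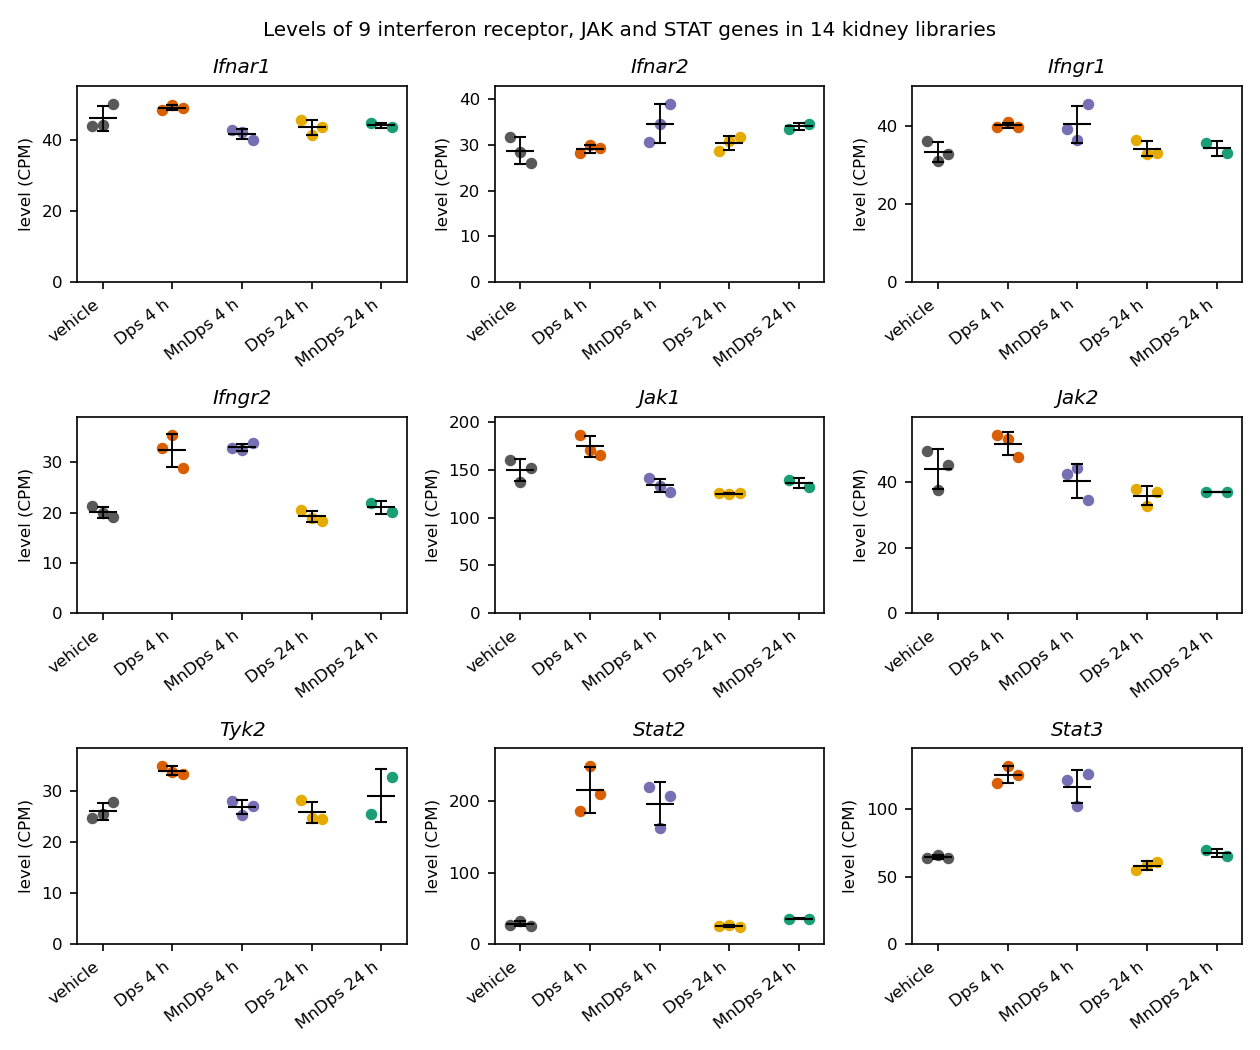
Level of each gene in CPM (vertical axis, linear from 0) in the 5 groups, with 1 point per library, a line at the group mean and bars of 1 SD. Stat2, Stat3 and Ifngr2 stand above vehicle in all 6 libraries at 4 h and are back near vehicle at 24 h.

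At 4 h the STATs and Ifngr2 rose after either protein. Tyk2 was also called higher after Dps, and Ifngr1 and Ifnar2 after MnDps, all by 1.3-fold or less. Ifngr1 differed about as much after Dps (log2 0.27) as after MnDps (0.28), and only the threshold set the 2 apart. After Dps, 4 of the 9 members were higher than vehicle and 0 lower (edgeR, adjusted p under 0.05), beside 8.33% of all tested genes higher and 6.27% lower. After MnDps, 5 were higher and 0 lower, beside 22.9% and 22.7% of all tested genes. The median log2 fold change of the 9 was 0.27 after Dps and 0.27 after MnDps, against -0.02 and 0.00 over all tested genes. All comparisons with vehicle share the same 3 vehicle libraries. In whole-kidney RNA, more cells of a type and more RNA per cell cannot be told apart, nor can fewer cells and less RNA.

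Stat2, the partner of IRF9 in the type I interferon response, had the largest change of the 9. Its level was 27.5, 32.2 and 26.1 CPM in vehicle, 185.4, 248.8 and 209.5 CPM at 4 h after Dps, and 219.7, 161.9 and 207.0 CPM at 4 h after MnDps. Every treated library at 4 h was above every vehicle library, with a wide gap. The log2 fold change was 2.91 ± 0.13 (SE) after Dps, a 7.52-fold rise (edgeR adjusted p = 8.3e-11). After MnDps it was 2.78 ± 0.13, a 6.88-fold rise (edgeR adjusted p = 1.5e-10). At 24 h the level was 24.9, 26.4 and 24.0 CPM after Dps and 35.1 and 35.9 CPM after MnDps. The Dps libraries at 24 h lay among or just under vehicle, and both MnDps libraries lay above it. Neither 24 h difference from vehicle passed the test, with log2 values of -0.18 ± 0.13 (edgeR adjusted p = 0.32) after Dps and 0.32 ± 0.14 (edgeR adjusted p = 0.137) after MnDps.

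Stat3, the main factor downstream of gp130 cytokines, rose less than Stat2. It stood at 63.8, 66.3 and 63.6 CPM in vehicle, 119.4, 131.9 and 125.0 CPM at 4 h after Dps, and 121.3, 102.4 and 125.9 CPM at 4 h after MnDps. No treated library at 4 h overlapped vehicle. The rise was 1.94-fold after Dps (log2 0.96 ± 0.08, edgeR adjusted p = 3e-07) and 1.8-fold after MnDps (log2 0.85 ± 0.08, edgeR adjusted p = 1.2e-06). At 24 h Stat3 read 54.7, 58.7 and 61.0 CPM after Dps, each below the lowest vehicle library, and 69.9 and 65.6 CPM after MnDps. Its 24 h log2 differences from vehicle were -0.15 ± 0.08 (edgeR adjusted p = 0.203) and 0.07 ± 0.09 (edgeR adjusted p = 0.645), neither past the threshold.

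Of the 4 receptor chains, Ifngr2, the signalling chain that brings JAK2 to the interferon-gamma receptor, moved most. Its level was 21.3, 19.9 and 19.1 CPM in vehicle, 32.9, 35.5 and 28.9 CPM at 4 h after Dps, and 32.8, 32.4 and 33.8 CPM at 4 h after MnDps. All 6 libraries at 4 h stood above vehicle. The log2 fold change was 0.70 ± 0.09 after Dps (1.62-fold, edgeR adjusted p = 3.5e-05) and 0.72 ± 0.09 after MnDps (1.64-fold, edgeR adjusted p = 1.9e-05). At 24 h Ifngr2 was 20.5, 19.0 and 18.3 CPM after Dps and 21.9 and 20.2 CPM after MnDps, overlapping vehicle in both. The 24 h log2 differences were -0.06 ± 0.09 and 0.07 ± 0.1, with edgeR adjusted p of 0.672 and 0.706. The calls for Stat2, Stat3 and Ifngr2 at 4 h held under every alternative run, the length and GC correction and the removal of any 1 library included.

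Ifngr1, the chain that binds interferon-gamma and carries JAK1, differed by less. It was 36.3, 31.1 and 32.8 CPM in vehicle, 39.8, 41.1 and 39.9 CPM at 4 h after Dps, and 39.3, 36.5 and 45.8 CPM at 4 h after MnDps. The treated libraries all lay above the highest vehicle library, though replicate 2 of MnDps was only just above it. The log2 difference was 0.27 ± 0.09 after Dps, which missed the threshold (edgeR adjusted p = 0.0548), and 0.28 ± 0.09 after MnDps, which passed (edgeR adjusted p = 0.0202). The MnDps call for Ifngr1 was lost with the length and GC correction (0.05), without replicate 3 of MnDps (0.18), without vehicle replicate 2 (0.21) and without vehicle replicate 3 (0.26). After Dps it passed with that correction (0.21, edgeR adjusted p = 0.0498), without a count filter (0.29), in a fit of only these 2 groups (0.28), with limma voom (0.28) and without vehicle replicate 1 (0.33, edgeR adjusted p = 0.0411). At 24 h Ifngr1 ranged from 33.0 to 36.6 CPM after Dps and read 35.8 and 33.1 CPM after MnDps, all overlapping vehicle.

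Ifnar1, the TYK2-bound chain of the type I receptor, passed the test against vehicle in no group. It read 43.9, 44.2 and 50.2 CPM in vehicle, 48.6, 49.9 and 49.0 CPM at 4 h after Dps, and 42.9, 42.3 and 40.0 CPM at 4 h after MnDps. The Dps libraries overlapped vehicle and the MnDps libraries lay just under it, with log2 differences of 0.09 ± 0.07 (edgeR adjusted p = 0.443) and -0.15 ± 0.07 (edgeR adjusted p = 0.116). Ifnar2, the high-affinity chain that carries JAK1, read 31.7, 28.4 and 25.9 CPM in vehicle and 28.2, 29.9 and 29.3 CPM at 4 h after Dps. At 4 h after MnDps it read 30.5, 34.4 and 38.9 CPM, which overlapped vehicle. The log2 difference was 0.27 ± 0.1 after MnDps (edgeR adjusted p = 0.0283) and 0.03 ± 0.1 after Dps (edgeR adjusted p = 0.887). This Ifnar2 call was lost with the length and GC correction (0.17), without MnDps replicate 2 (0.26) or 3 (0.18), and without vehicle replicate 2 (0.25) or 3 (0.20). At 24 h Ifnar1 stayed between 41.3 and 45.7 CPM in all 5 libraries. Ifnar2 read 28.7, 30.9 and 31.6 CPM at 24 h after Dps, overlapping vehicle. After MnDps it read 33.5 and 34.6 CPM, both above every vehicle library. That log2 difference was 0.25 ± 0.11 and did not pass (edgeR adjusted p = 0.125).

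Among the kinases, Tyk2, which serves the type I receptor, rose at 4 h after Dps. It was 24.8, 25.6 and 28.0 CPM in vehicle, 35.0, 33.8 and 33.4 CPM at 4 h after Dps, and 28.1, 25.4 and 27.1 CPM at 4 h after MnDps. The Dps libraries stood clear of vehicle and the MnDps libraries did not. The log2 difference was 0.38 ± 0.1 after Dps (edgeR adjusted p = 0.0138) and 0.03 ± 0.1 after MnDps (edgeR adjusted p = 0.803). The Dps call for Tyk2 was lost without vehicle replicate 1 (0.34, edgeR adjusted p = 0.0549) or 2 (0.35, edgeR adjusted p = 0.0504). At 24 h Tyk2 was 28.3, 24.7 and 24.6 CPM after Dps and 25.5 and 32.8 CPM after MnDps, so the 2 MnDps libraries lay far apart.

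Jak1, the kinase shared by both receptors, was 159.8, 136.8 and 152.1 CPM in vehicle, 186.6, 171.1 and 165.8 CPM at 4 h after Dps, and 141.2, 133.3 and 127.3 CPM at 4 h after MnDps. The Dps libraries lay above vehicle and the MnDps libraries overlapped its lower end. Neither difference from vehicle passed, at 0.22 ± 0.07 (edgeR adjusted p = 0.0564) and -0.16 ± 0.07 (edgeR adjusted p = 0.0924) on the log2 scale. They were 0.14 and -0.01 with the length and GC trend removed. Jak1 passed after Dps in DESeq2 (0.22) and limma voom (0.21). Each difference passed without 1 vehicle library, replicate 1 for Dps (0.27, edgeR adjusted p = 0.0426) and replicate 2 for MnDps (-0.24, edgeR adjusted p = 0.0197). At 24 h after Dps, Jak1 was 125.6, 124.3 and 125.8 CPM, all under the lowest vehicle library, a log2 difference of -0.26 ± 0.08 (edgeR adjusted p = 0.0259). That call was lost with the length and GC correction (-0.10), without replicate 1 (-0.27) or 2 (-0.26) of Dps at 24 h, and without vehicle replicate 1 (-0.21) or 3 (-0.24). At 24 h after MnDps the 2 libraries read 139.5 and 132.3 CPM.

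Jak2, which serves the interferon-gamma receptor together with Jak1, was 49.4, 37.4 and 45.0 CPM in vehicle. It was 54.3, 52.9 and 47.7 CPM at 4 h after Dps, and 42.5, 44.2 and 34.5 CPM at 4 h after MnDps. Both treated groups overlapped vehicle, whose own libraries spread widely. The log2 differences were 0.23 ± 0.11 (edgeR adjusted p = 0.161) and -0.12 ± 0.11 (edgeR adjusted p = 0.38). At 24 h Jak2 read 37.9, 32.5 and 36.9 CPM after Dps and 37.0 in both MnDps libraries, with log2 differences of -0.30 ± 0.11 (edgeR adjusted p = 0.0642) and -0.25 ± 0.12 (edgeR adjusted p = 0.187). Once the length and GC trend was removed, Jak2 was 0.16 and 0.08 at 4 h, and -0.11 and -0.09 at 24 h, after Dps and MnDps. Both 24 h differences passed without vehicle replicate 2, the lowest vehicle library for Jak2, at -0.41 after Dps and -0.36 after MnDps.

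**Figure D2:**
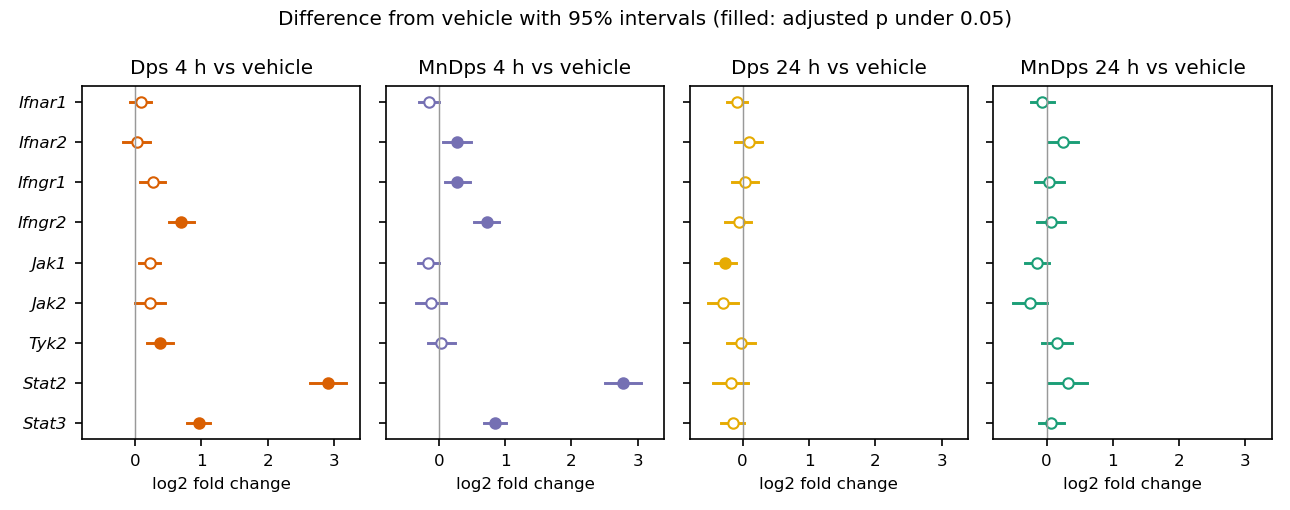
Log2 fold change from vehicle (horizontal axis) of each gene in the 4 treated groups, with 95% intervals and filled points where the edgeR adjusted p is under 0.05. Stat2 lies near 2.91 and 2.78 at 4 h and within 0.32 of 0 at 24 h.

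By 24 h few members differed from vehicle. After Dps, 0 were higher and 1, Jak1, was lower, beside 9.64% and 10.4% of all tested genes. After MnDps, 0 were higher and 0 lower, beside 4.93% and 8.39%. For MnDps at 24 h, 2 of the 9 had an unadjusted p under 0.05, and DESeq2 and limma voom also called 0. The median log2 difference of the 9 was -0.08 after Dps and 0.07 after MnDps, against 0.00 and 0.02 over all tested genes.

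Set directly against its 4 h libraries, Dps at 24 h had 7 of 9 members lower and 0 higher, beside 22.6% of all tested genes lower and 22.0% higher. Stat2 fell by 3.09 on the log2 scale (SE 0.13, edgeR adjusted p = 4.1e-11) and Stat3 fell by 1.11 (SE 0.08, edgeR adjusted p = 5.3e-08). Ifngr2 fell by 0.76, Jak2 fell by 0.53, Jak1 fell by 0.48 and Tyk2 fell by 0.40, with edgeR adjusted p of 1.2e-05, 0.00105, 0.00013 and 0.00336. With the length and GC trend removed the values were -0.64 for Ifngr2, -0.27 for Jak2, -0.24 for Jak1 and -0.27 for Tyk2, all still called (edgeR adjusted p = 3.5e-05, 0.0158, 0.00474 and 0.0196). Ifngr1 fell by 0.23 (edgeR adjusted p = 0.0449), a call that was lost without any 1 of the 3 Dps libraries at 4 h (-0.26, -0.23 and -0.25 for replicates 1, 2 and 3) or without replicate 2 (-0.21) or 3 (-0.22) at 24 h. For MnDps, 3 of 9 were lower at 24 h than at 4 h and 0 higher, beside 11.7% and 10.1% of all tested genes. These were Stat2, which fell by 2.46 (SE 0.15, edgeR adjusted p = 8.7e-09), Stat3, which fell by 0.78 (SE 0.09, edgeR adjusted p = 2.5e-05), and Ifngr2, which fell by 0.65 (SE 0.1, edgeR adjusted p = 0.00035).

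At 4 h MnDps and Dps, at the same dose, were compared member by member, and no difference passed the test for either STAT or either interferon-gamma receptor chain. The MnDps minus Dps difference was -0.13 for Stat2 (95% interval -0.38 to 0.12), -0.11 for Stat3 (-0.28 to 0.06), 0.02 for Ifngr2 (-0.16 to 0.21) and 0.01 for Ifngr1 (-0.18 to 0.2). These were, once the length and GC trend was removed, 0.01 for Stat2, 0.21 for Stat3 (edgeR adjusted p = 0.0691), 0.08 for Ifngr2 and -0.16 for Ifngr1, again not called. The 3 kinases and Ifnar1 were lower after MnDps than after Dps, and Ifnar2 was higher, so 4 of 9 were lower and 1 higher, beside 20.7% and 20.8% of all tested genes. The log2 difference was -0.38 ± 0.07 for Jak1 (edgeR adjusted p = 0.00082), -0.35 ± 0.11 for Jak2 (edgeR adjusted p = 0.015) and -0.35 ± 0.1 for Tyk2 (edgeR adjusted p = 0.00863). It was -0.24 ± 0.07 for Ifnar1 (edgeR adjusted p = 0.0168) and 0.25 ± 0.09 for Ifnar2 (edgeR adjusted p = 0.0466). For these 5 genes the libraries of the 2 groups did not overlap, which also held for 26.5% of all tested genes as higher and 26.5% as lower.

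The transcripts of the 3 kinases are long, at the 77.2, 78.7 and 76.3 percentiles of tested genes for Jak1, Jak2 and Tyk2. Those of Stat3 and Stat2, which were not called in this comparison, stood at 86.6 and 70.3, and Ifnar1, Ifngr2, Ifnar2 and Ifngr1 at 61.8, 58.2, 44.8 and 24.5. Across tested genes, long transcripts tended to be lower after MnDps than after Dps at 4 h. With the length and GC trend removed, the differences shrank to -0.15 for Jak1, -0.09 for Jak2, -0.16 for Tyk2 and -0.16 for Ifnar1, with edgeR adjusted p of 0.0854, 0.485, 0.178 and 0.0776. Ifnar2 remained at 0.23 (edgeR adjusted p = 0.0755), and 0 of the 9 members passed. The Ifnar2 call was also lost without MnDps replicate 2 (0.25) or 3 (0.13) or any of the 3 Dps libraries (0.21, 0.26 and 0.24 for replicates 1, 2 and 3). The Jak2 call was lost without MnDps replicate 3 (-0.28) or Dps replicate 1 (-0.33). With a term for the libraries of more than 30000000 counts, only Jak1 stayed past the threshold. In this comparison every deep library was a Dps library, so the term could not fully separate depth from protein. Whether transcript length accounts for these differences was not tested.

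At 24 h, MnDps and Dps differed in 0 of 9 members, beside 0.148% of all tested genes higher and 0.666% lower. Stat2 came closest, with both MnDps libraries above the 3 Dps libraries and a log2 difference of 0.50 ± 0.14 (95% interval 0.2 to 0.8, edgeR adjusted p = 0.0957). It passed in DESeq2 (0.50) and in a fit of these 2 groups alone (0.50), and 2 of the 9 members had an unadjusted p under 0.05. Limma voom called 0.

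The fall from 4 h to 24 h was compared between MnDps and Dps as an interaction, positive where the change after MnDps lay above that after Dps. It passed for 3 of 9 members, all positive, beside 13.7% of all tested genes positive and 15.7% negative. The interaction for Stat2 was 0.63 ± 0.18 on the log2 scale (edgeR adjusted p = 0.0164). Jak1 (0.50 ± 0.11, edgeR adjusted p = 0.00379) and Tyk2 (0.52 ± 0.14, edgeR adjusted p = 0.0127) fell after Dps and were not called after MnDps. With the length and GC trend removed the 3 values were 0.40, 0.19 and 0.21 for Stat2, Jak1 and Tyk2 (edgeR adjusted p = 0.151, 0.173 and 0.292), and 0 members passed. Without replicate 2 of MnDps at 24 h, Tyk2 was 0.33 (edgeR adjusted p = 0.144) and Stat2 was 0.61 (edgeR adjusted p = 0.0653). With the term for deep libraries Tyk2 was 0.46 (edgeR adjusted p = 0.0594).

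**Figure D3:**
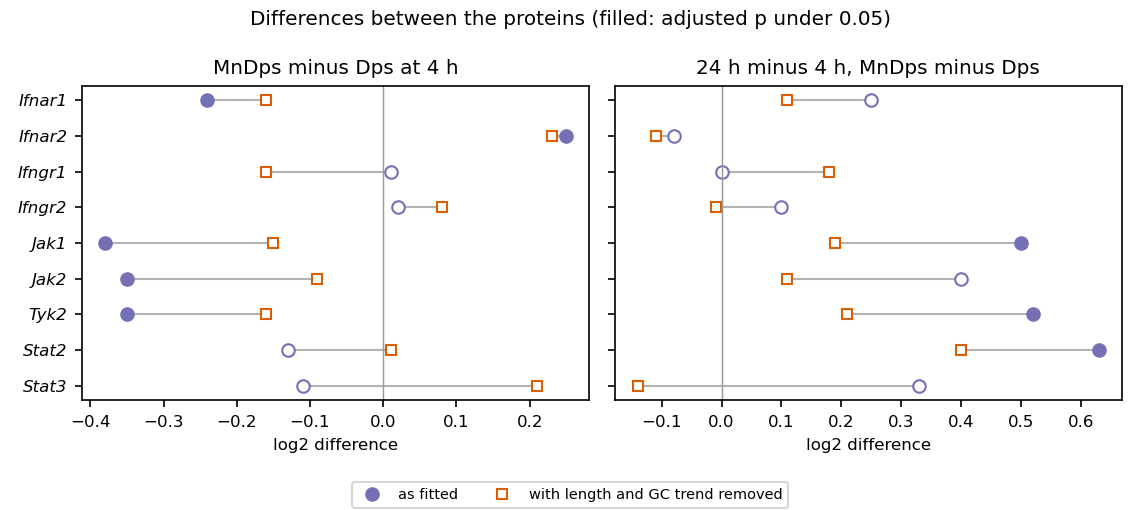
Log2 difference between MnDps and Dps at 4 h (left) and of their changes from 4 h to 24 h (right), as fitted (circles, filled where the edgeR adjusted p is under 0.05) and with the length and GC trend removed (squares, all open since none passed). For Jak1 the left value moves from -0.38 to -0.15 and the right from 0.50 to 0.19.

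Ratios of read counts within a library describe how partners moved against each other, without the scaling between libraries. Ifngr2 to Ifngr1 was 0.583 to 0.641 in vehicle, 0.724 to 0.864 at 4 h after Dps and 0.738 to 0.889 at 4 h after MnDps, with no overlap. At 24 h it was between 0.549 and 0.577 after Dps, below every vehicle library, and between 0.61 and 0.611 after MnDps, within the vehicle range. Stat2 to Stat3 went from between 0.411 and 0.486 in vehicle to between 1.55 and 1.89 at 4 h after Dps and between 1.58 and 1.81 after MnDps. In vehicle Stat3 thus had more reads than Stat2 and at 4 h fewer, in every library. By 24 h Stat2 to Stat3 was 0.393 to 0.456 after Dps, overlapping vehicle, and 0.502 to 0.547 after MnDps, above every vehicle library. Jak1 to Jak2 stayed between 3.02 and 3.83 in all 14 libraries, and the groups overlapped. Ifnar2 to Ifnar1 was 0.516 to 0.723 in vehicle and overlapped it at 4 h after Dps (0.581 to 0.599) and, at its lower end, after MnDps (0.712 to 0.972). At 24 h that ratio was 0.629 to 0.746 after Dps, overlapping vehicle, and 0.749 to 0.795 after MnDps, above every vehicle library.

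**Figure D4:**
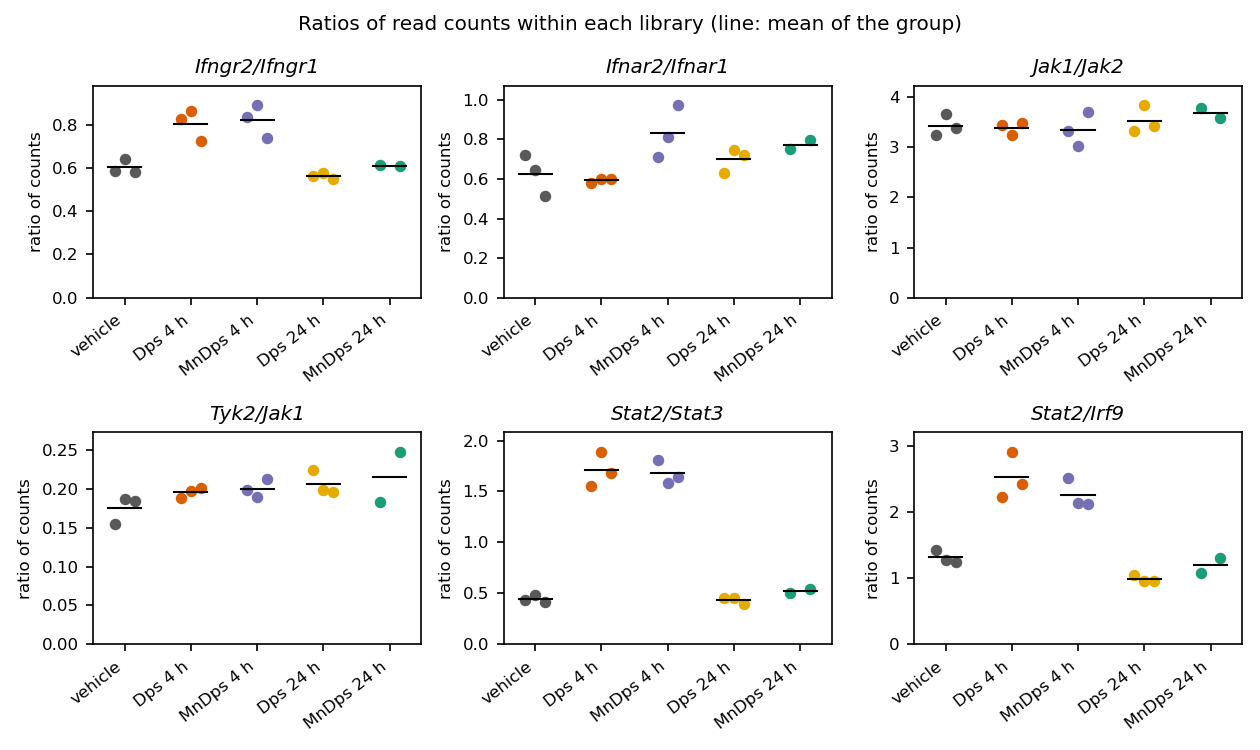
Ratio of read counts of 2 genes within each library (vertical axis, linear from 0) in the 5 groups, with 1 point per library and a line at the group mean. Stat2/Stat3, Stat2/Irf9 and Ifngr2/Ifngr1 stand apart from vehicle at 4 h, and Jak1/Jak2 stays between 3.02 and 3.83.

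Few reads were counted for the interferon genes looked for. Of these 10 genes, 5 had no count in any library, which over 344775865 counts allows up to 0.0087 CPM (3 counts, counting error only). That limit is for the 14 libraries pooled, and it is higher for a single group or library. Another 4 had at most 2 counts in all 14 libraries together. Ifng had 25 counts in all, between 0 and 6 in a library. None had enough counts to be tested. Whether reads that map to several genes were counted is not stated, and the interferon-alpha genes are near copies of one another, so their counts of 0 are uncertain.

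The wider pathway was described with a list of 51 names, of which 50 were in the table and 39 tested. At 4 h after Dps 15 of the 39 rose and 0 fell, and after MnDps 13 rose and 6 fell. Of all tested genes 8.33% rose and 6.27% fell after Dps, and 22.9% rose and 22.7% fell after MnDps. Higher and lower calls of the list together were thus near the share of all tested genes after MnDps. Irf9, the DNA-binding partner of Stat2, went from 21.9 ± 3.18 CPM in vehicle to 85.0 ± 1.56 after Dps and 86.9 ± 10.8 after MnDps (SD, n = 3 each), log2 fold changes of 1.96 ± 0.11 and 1.99 ± 0.11. The ratio of Stat2 to Irf9 counts went from between 1.24 and 1.43 in vehicle to between 2.23 and 2.91 after Dps and between 2.12 and 2.51 after MnDps. At 24 h this ratio was 0.952 to 1.05 after Dps, below every vehicle library, and 1.08 to 1.31 after MnDps, overlapping vehicle. Nmi, which binds STATs, rose by 2.59 after Dps and 3.25 after MnDps on the log2 scale. The STAT coactivators Crebbp (-1.05) and Ep300 (-0.97) fell after MnDps and stood at 0.01 and 0.09 after Dps. These falls were -0.64 and -0.58 with the length and GC trend removed, both still called.

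Of the 15 tested feedback genes and inhibitors, 5 rose and 0 fell after Dps at 4 h (8.33% and 6.27% of all tested genes). After MnDps 5 rose and 2 fell (22.9% and 22.7%), which together was near the share of all tested genes. The largest rises were in Isg15, a ubiquitin-like interferon-stimulated protein (5.55 and 6.19 on the log2 scale after Dps and MnDps), and Usp18, which removes it and blocks IFNAR2 signalling (4.76 and 5.03). Socs1, an inhibitor of the JAKs, rose by 2.80 and 3.13, and Socs3, which binds gp130, rose by 2.03 and 1.92. Socs2 rose after MnDps (0.98). Pias2, one of the inhibitors of activated STATs, fell after MnDps (-0.51), as did Pias1 (-0.39), whose call was lost with the length and GC correction (-0.09). Ptpn1 rose after Dps by 0.30, a call lost under 6 of the alternatives.

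Receptor chains of other cytokines that signal through JAK kinases were also described at 4 h. Of 13 tested, 6 rose and 0 fell after Dps (8.33% and 6.27% of all tested genes). After MnDps 5 rose and 2 fell (22.9% and 22.7%), so higher and lower calls together were near the share of all tested genes. Osmr, the oncostatin M receptor, rose by 0.96 and 0.83 (log2, Dps and MnDps). Il4ra rose by 0.63 and 0.84, Il2rg, the shared gamma chain, rose by 1.53 and 1.34, and Csf3r, a receptor of neutrophils that is also on the neutrophil marker list, rose by 1.81 and 1.89. Il12rb1, an interleukin-12 receptor chain, rose by 1.56 and 1.66 from a vehicle mean of 0.426 CPM. The Il12rb1 calls were lost without vehicle replicate 3 (1.11 after Dps and 1.22 after MnDps), and after Dps also without Dps replicate 2 (1.24). After MnDps Il6ra, the interleukin-6 receptor, fell by 0.59, a call lost under 10 alternatives, and Ghr, the growth hormone receptor, fell by 0.30, a call lost with the length and GC correction (-0.14) and without vehicle replicate 3 (-0.23). Il6st, the gp130 chain, rose after Dps (0.53) and was -0.20 after MnDps (edgeR adjusted p = 0.0788). Among 5 other JAK and STAT genes, Jak3 rose by 0.62 and 0.43, and Stat6 rose after Dps by 0.23, a call lost under 6 of the alternatives. Of the pathway calls at 4 h, 12 of 15 after Dps and 15 of 19 after MnDps held under every alternative run.

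At 24 h after Dps 2 of the 39 pathway genes were higher and 6 lower, and after MnDps 5 were higher and 3 lower. Of all tested genes 9.64% were higher and 10.4% lower after Dps, and 4.93% and 8.39% after MnDps. Isg15 was higher by 1.17 after Dps and 1.50 after MnDps, and Usp18 by 0.70 and 1.11 on the log2 scale. After Dps the Isg15 call was lost without vehicle replicate 3 (0.99), and the Usp18 call under 7 alternatives. Both MnDps calls were lost without replicate 1 of MnDps at 24 h, at 1.32 for Isg15 and 0.93 for Usp18. Also higher after MnDps were Stat4 (1.62), Irf9 (0.45) and Il10rb (0.29). Stat4 had few reads, at most 27 counts in a library, with means of 0.369 CPM in vehicle and 1.06 CPM after MnDps at 24 h. Lower after Dps were Il6ra (-0.99), Socs2 (-0.80), Il6st (-0.54), Il13ra1 (-0.42) and Stat6 (-0.21), and lower after MnDps were Il13ra1 (-0.48), Ghr (-0.46) and Pias2 (-0.35). Each call for these genes was lost under at least 1 alternative. Of these 24 h pathway calls, 1 of 8 after Dps, Crebbp (-0.82), and 0 of 8 after MnDps held under every alternative run.

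**Figure D5:**
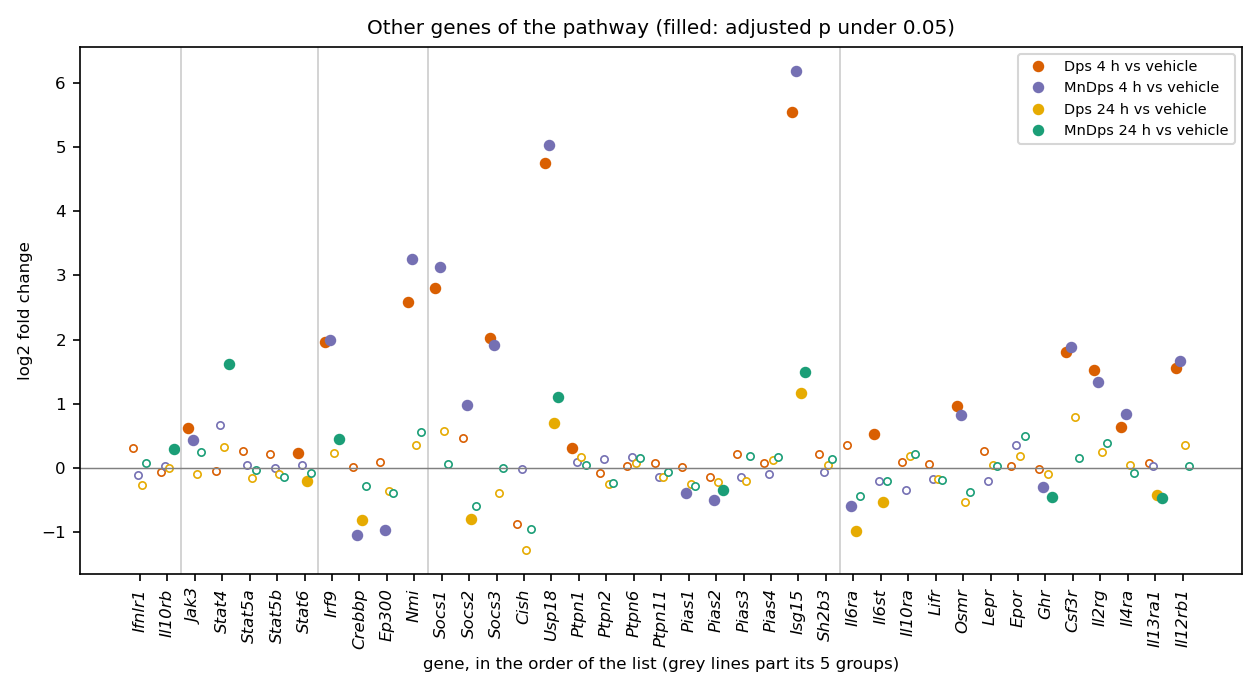
Log2 fold change from vehicle (vertical axis) of the 39 tested pathway genes (horizontal axis, in list order) in the 4 treated groups, filled where the edgeR adjusted p is under 0.05. Isg15 and Usp18 reach 6.19 and 5.03 at 4 h after MnDps.

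Markers of other cells moved alongside at 4 h. Of 8 neutrophil markers, 7 were in the table and 3 were tested. All 3 were called higher at 4 h, beside 8.33% of all tested genes after Dps and 22.9% after MnDps. The count filter may have kept them through the 4 h libraries, where the markers were high, so this count is a description only. The 7 markers summed to 0.573 to 1.37 CPM in vehicle and 1.26 to 2.63 CPM at 24 h. At 4 h they summed to 4.93 to 7.51 CPM after Dps and 10.6 to 18.9 CPM after MnDps. Mmp8 had no count in vehicle, and Ngp none at 24 h. Endothelial markers (8 of 8 tested) summed to 371.6 to 432.3 CPM in vehicle. At 4 h they summed to 233.6 to 306.9 CPM after Dps and 218.5 to 281.1 CPM after MnDps. Of the 8, 5 were lower and 1 higher after Dps, and 6 lower and 0 higher after MnDps. Of all tested genes 6.27% were lower and 8.33% higher after Dps, and 22.7% and 22.9% after MnDps. Monocyte and macrophage markers (8 of 8 tested) summed to 103.5 to 129.2 CPM in vehicle. At 4 h they summed to 96.4 to 106.6 CPM after Dps and 80.5 to 91.3 CPM after MnDps. Beside the same shares, 2 were higher and 1 lower after Dps, and 2 higher and 4 lower after MnDps. Their 24 h sums were 139.3 to 157.8 CPM after Dps and 146.2 to 146.6 CPM after MnDps. Adipocyte markers summed to 44.6 to 82.5 CPM in vehicle and 102.8 to 170.9 at 4 h. Their 24 h sums were 103.5 to 169.6 CPM after Dps and 57.0 to 146.6 CPM after MnDps. T and NK cell markers stayed between 3.6 and 8.78 CPM and B cell markers between 1.25 and 2.78 CPM in all 14 libraries. The part of these cells in the changes of Stat2, Stat3 and Ifngr2 was not tested.

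Over the 14 libraries the log2 levels of Stat2, Stat3 and Ifngr2 went together, with Pearson's r of 0.99 for Stat2 and Stat3, 0.98 for Stat2 and Ifngr2 and 0.96 for Stat3 and Ifngr2. Jak1 and Jak2 had r of 0.92, and Ifnar1 and Ifnar2 had r of -0.75. These are descriptions over libraries that fall into 4 h and other libraries and share their depth and length trends. The genes with a mean of at least 1 CPM numbered 13302, the 9 members included. Outside the members, the nearest of them in pattern was Parp14 for Stat2 (r = 0.997), Cd274 for Stat3 (0.993) and Tmem140 for Ifngr2 (0.987). It was Cers6 for Jak1 (0.965), Ptpn3 for Jak2 (0.949), Asxl1 for Ifnar1 (0.938), Il2rg for Ifngr1 (0.937), Recql5 for Tyk2 (0.921) and H2-DMa for Ifnar2 (0.886).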

How the data were processed

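Per the labels' protocols, RNA from snap-frozen kidneys was made into stranded mRNA libraries and sequenced in paired-end mode. The deposited values are raw read counts per gene symbol, 1 column per library, made with STAR and featureCounts on mm10 per the submitters' processing notes. For versions, annotation and strand setting, nothing is given in the sources used here. Libraries were grouped by the labels' treatment and time. Genes passing edgeR's filterByExpr (14854 of 24421) were scaled by TMM and fitted in edgeR 4.0.16 (R 4.3.3) with 5 group means over all 14 libraries, 9 residual degrees of freedom and a robust quasi-likelihood F-test. P-values were adjusted by Benjamini-Hochberg over all tested genes of a comparison and called under 0.05. The SE is the log2 fold change divided by the square root of F. Levels are CPM of the scaled library. Transcript length came from the longest GENCODE M21 transcript, known for 14328 tested genes (96.5%).

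All 9 members were tested in every comparison, and every call among them was named. Pathway genes called against vehicle in at least 1 group were named, and for each member the gene of highest correlation was named. The members and lists were chosen with earlier results of these data known. Alternatives were no count filter, at least 1 CPM in 3 libraries, DESeq2's size factors by median of ratios, a length and GC offset, a term for libraries above 30000000 counts, only the groups compared, DESeq2 1.42.0, limma 3.58.1 voom with library weights, and leaving out each library. The same alternatives for the pathway genes were added after the data were seen. The scripts were tested on simulated data.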

Additional observations from a re-analysis of the deposited data

Results flagged for a closer look

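The change from 4 h to 24 h differed between MnDps and Dps for 3 members by a test of the difference itself. On the log2 scale the change after MnDps minus that after Dps was 0.50 for Jak1, 0.52 for Tyk2 and 0.63 for Stat2. With the length and GC trend removed these were 0.19, 0.21 and 0.40, and none passed. Tyk2 after MnDps at 24 h rested on libraries of 25.5 and 32.8 CPM, and without the second its difference was 0.33.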

How the results depend on the processing

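Of 648 member values under 8 alternatives that kept all libraries, 587 kept direction (the sign of the value rounded to 2 decimals) and side of the threshold, 27 lost the call, 14 gained one and 20 changed sign, of which 14 with the length and GC correction. None of the 20 was called in the report. The cause was not tested. No paired analysis was possible because the labels give no replicate numbers.

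For Dps at 4 h, with 4 members called in the report, 5 were called with the length and GC correction, without a count filter, with only the groups compared and in DESeq2, 6 with voom, and 3 to 5 without 1 library at a time. With the length and GC correction, the members called were 3 for MnDps at 4 h, 0 for Dps at 24 h, 0 for MnDps against Dps at 4 h and 0 for the interaction. Over all tested genes it gave 1220 higher and 2508 lower for Dps at 4 h, where 1237 and 931 were called without it, 3532 and 2180 against 3270 and 3356 for Dps at 24 h against 4 h, 2241 and 1455 against 3085 and 3073 for MnDps against Dps at 4 h, and 673 and 1685 against 2034 and 2334 for the interaction. With the term for deep libraries the members called were 0 for Dps at 24 h and 1 for MnDps against Dps at 4 h. In a fit of only the groups compared they were 3 for MnDps at 4 h and 1 for MnDps against Dps at 24 h, where DESeq2 also called 1. Limma voom called 2 for Dps at 24 h. Without 1 library at a time the members called were 3 to 5 for MnDps at 4 h, 0 to 2 for Dps at 24 h, 0 to 1 for MnDps at 24 h, 3 to 5 for MnDps against Dps at 4 h and 1 to 4 for the interaction.

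Beside the losses given in the report, calls were lost for Ifnar2 in MnDps at 4 h with the deep-library term (0.23) and in the fit of only the groups compared (0.27), and for Ifngr1 there in that fit (0.27) and with voom (0.21). They were lost for Jak1 in Dps at 24 h with the deep-library term (-0.23), and for Ifngr1 in Dps at 24 h against 4 h with median-of-ratios factors (-0.23), the deep-library term (-0.24) and DESeq2 (-0.23). In MnDps against Dps at 4 h, Ifnar2 lost its call without a filter (0.22), with the deep-library term (0.17), in the groups-only fit (0.25) and with voom (0.19), and the deep-library term ended the calls for Ifnar1 (-0.17), Jak2 (-0.28) and Tyk2 (-0.28).

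The 14 gained calls were the 4 for Ifngr1 and 2 for Jak1 in Dps at 4 h and the 2 for Stat2 in MnDps against Dps at 24 h given in the report, Jak2 in Dps at 24 h with voom (-0.34), Ifnar1 in Dps at 24 h against 4 h with only the groups compared (-0.17) and voom (-0.19), and Stat3 in the interaction with the stricter filter (0.33), DESeq2 (0.33) and voom (0.38).

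Signs changed with the length and GC correction for Ifnar2 (-0.06) in Dps at 4 h, Jak2 (0.08) in MnDps at 4 h, Ifngr1 (-0.07) and Tyk2 (0.02) in Dps at 24 h, Ifngr1 (-0.05) in MnDps at 24 h, Ifngr1 (-0.16), Stat2 (0.01) and Stat3 (0.21) in MnDps against Dps at 4 h, and Ifnar1 (-0.05) in the same at 24 h. They also changed for Ifnar2 (0.01), Jak1 (-0.05) and Tyk2 (-0.05) in MnDps at 24 h against 4 h, and Ifngr2 (-0.01) and Stat3 (-0.14) in the interaction. With the deep-library term they changed for Tyk2 (0.02) in Dps at 24 h and Ifnar2 (-0.02) in Dps at 24 h against 4 h. Without a count filter Ifngr1 changed in MnDps against Dps at 4 h (-0.02) and at 24 h (-0.01), and with voom in the former (-0.07). With voom Ifnar2 changed in MnDps at 24 h against 4 h (0.04).

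Without 1 library at a time, against vehicle, Ifnar2 ranged from -0.05 to 0.10 for Dps at 4 h, Tyk2 from -0.02 to 0.09 for MnDps at 4 h, Ifngr1 from -0.02 to 0.09 and Tyk2 from -0.10 to 0.04 for Dps at 24 h, and Ifngr1 from -0.02 to 0.10 and Tyk2 from -0.04 to 0.32 for MnDps at 24 h. For MnDps against Dps, Ifngr1 ranged from -0.11 to 0.07 and Ifngr2 from -0.06 to 0.09 at 4 h, and Ifnar1 from -0.02 to 0.05, Ifngr1 from -0.06 to 0.06, Jak2 from -0.02 to 0.09 and Tyk2 from -0.02 to 0.33 at 24 h. For MnDps at 24 h against 4 h, Ifnar2 ranged from -0.10 to 0.06, Jak1 from -0.03 to 0.06 and Tyk2 from -0.07 to 0.28, and for the interaction Ifnar2 ranged from -0.16 to 0.01.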
